A study of Mus musculus with 8 samples.

Results

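Glucocorticoid hormone and the FoxO transcription factors both bear on how hematopoietic stem cells (HSCs) stay at rest, and 10 genes of these pathways were followed across HSCs of control and anemic mice. The set holds the glucocorticoid receptor (Nr3c1), its targets Tsc22d3, Fkbp5 and Per1, the FoxO factors Foxo1 and Foxo3, and the FoxO-linked genes Klf2, Txnip, Ddit4 and Pik3ip1. All 10 were found among the 15142 genes listed in every expression table, and all 10 were among the 11347 genes tested. Tsc22d3 and Pik3ip1 were selected on their FPKM values, for a higher level in marrow HSCs of anemic mice than in control marrow HSCs. For these 2 genes the values below are a description with no test, in every comparison, because all comparisons share libraries with that choice. The other 8 genes were tested.

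RNA-seq was performed on HSCs of wild-type C57BL/6 mice, in 8 libraries of 3 groups. Control BM HSC (3 libraries) came from the bone marrow of mice that the labels give as treated with PBS and the study's text as untreated. PHZ BM HSC (3 libraries) and PHZ SP HSC (2 libraries) came from the bone marrow and the spleen of mice given phenylhydrazine (PHZ), a compound that lyses red blood cells, at 60 mg/kg into the peritoneum in 2 injections, and were sorted 3 days after the last one. The marrow libraries are HSCs by their labels, but their columns in the deposited tables are headed WBM, a name the tables do not explain. No spleen HSCs of mice without PHZ were analysed here, so tissue and anemia cannot be told apart in PHZ SP HSC. The study's methods describe young adult mice of both sexes and an HSC gate of lineage-, Sca-1+, c-kit+, CD150+ and CD48-/low cells, while the labels give no age and do not say whether a library came from 1 mouse or from several. The p-values therefore measure the spread between these libraries, which may be technical.

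Glucocorticoid binds its receptor in the cytoplasm, where heat shock protein 90 and its partners hold it, and the receptor then enters the nucleus and switches on genes such as Tsc22d3, Fkbp5 and Per1. FoxO factors are kept out of the nucleus when phosphoinositide 3-kinase (PI3K) and AKT are active. When that pathway is quiet they raise genes of cell cycle arrest, oxidative defence and nutrient restraint, and in HSCs they are required for long-term rest. Several members act back on the same pathway, since PIK3IP1 inhibits PI3K, DDIT4 inhibits the growth kinase complex mTORC1, and TXNIP limits glucose uptake and binds thioredoxin.

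The libraries held between 8216626 and 13201359 reads, and 43.3% to 48.6% of them fell on Rn45s, the gene of the ribosomal RNA precursor. Libraries of a group correlated across genes with r from 0.903 to 0.976. The first 2 replicates of PHZ BM HSC resembled each other most, and a chi-square of their reads was 7.91 per degree of freedom. That value covers counting error only and cannot tell separate RNA samples from repeated amplification of one, so both were kept as labelled, and the calls of Per1 and Ddit4 below also held with the pair averaged and counted as 1 library. All 12 HSC markers listed averaged at least 1 FPKM in each group. Markers of other cells were present too: summed erythroid markers were 130 to 285 FPKM in control BM HSC, 184 to 343 in PHZ BM HSC and 948 to 1158 in PHZ SP HSC, and summed neutrophil markers were 319 to 656, 338 to 842 and 1302 to 1667 FPKM in the same order. Summed macrophage and monocyte markers were 252 to 287, 202 to 260 and 350 to 353 FPKM, and summed megakaryocyte markers were 114 to 135, 82.1 to 101 and 87.8 to 141 FPKM. The sums of B cell markers (26.8 to 50.6, 28.3 to 30.5 and 38.3 to 53.8 FPKM) and of T and NK cell markers (21.8 to 60.8, 31.5 to 49.5 and 42.7 to 49.5 FPKM) overlapped between spleen and control. In bulk RNA, a change in the number of cells of a type and a change in RNA per cell cannot be told apart.

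The glucocorticoid receptor and FoxO factors bind mostly at enhancers far from start sites, which were not searched, while the RefSeq promoters (build GRCm38, 250 bases before to 50 after a start site) were searched on both strands. Promoters of 9 members were in the table, 12 promoters in all. The full glucocorticoid response element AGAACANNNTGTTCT was in none of the 12, and in 0.00913% of all 32851 promoters. The glucocorticoid motif AGAACA, which the full element contains once on each strand, was in 1 of the 12, at Tsc22d3, and in 19.0% of all promoters. The FoxO site GTAAACA was in 1 of the 12, at Txnip, against 3.65% of all. The E-box CACGTG, the site that clock factors and the glucose sensor MondoA share, was in 2 of the 12, at Per1 and Fkbp5, against 7.15% of all. The cAMP response element TGACGTCA was in none, against 1.79%. A match says only that these letters are present, and their absence says nothing about a factor bound farther away.

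The 250 bases before the start site are shown for the members with the clearest difference in marrow (Tsc22d3, Pik3ip1, Per1 and Ddit4) and for the other 2 with a match (Fkbp5 and Txnip). Each is written 5′ to 3′ on the gene's strand, with motif matches in capitals. Tsc22d3 is the region chrX:140600523-140600772 on the minus strand, the one of its 3 promoters with a match, with the AGAACA motif in reverse starting 185 bases before the start. Pik3ip1 is chr11:3330481-3330730 (plus strand, no match). Per1 is chr11:69098699-69098948 (plus strand), the first of its 2 promoters, with the E-box starting 166 bases before the start. Ddit4 is chr10:59951771-59952020 (minus strand, no match). Fkbp5 is chr17:28486150-28486399 (minus strand) with the E-box at 169 bases, and Txnip is chr3:96557707-96557956 (plus strand) with the FoxO site at 121 bases.
Tsc22d3: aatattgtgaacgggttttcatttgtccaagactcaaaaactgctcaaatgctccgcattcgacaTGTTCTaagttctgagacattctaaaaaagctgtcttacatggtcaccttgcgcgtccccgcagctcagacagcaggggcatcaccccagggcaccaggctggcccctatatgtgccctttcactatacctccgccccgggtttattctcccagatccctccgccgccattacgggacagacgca
Pik3ip1: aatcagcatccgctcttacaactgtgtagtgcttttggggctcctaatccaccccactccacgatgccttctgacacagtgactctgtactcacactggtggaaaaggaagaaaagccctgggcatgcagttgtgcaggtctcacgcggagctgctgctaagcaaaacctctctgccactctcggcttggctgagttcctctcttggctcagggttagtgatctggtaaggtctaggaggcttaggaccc
Per1: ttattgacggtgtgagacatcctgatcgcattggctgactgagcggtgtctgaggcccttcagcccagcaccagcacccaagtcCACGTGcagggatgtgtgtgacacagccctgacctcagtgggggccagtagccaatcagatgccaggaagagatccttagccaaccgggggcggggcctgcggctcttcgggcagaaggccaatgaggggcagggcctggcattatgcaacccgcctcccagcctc
Ddit4: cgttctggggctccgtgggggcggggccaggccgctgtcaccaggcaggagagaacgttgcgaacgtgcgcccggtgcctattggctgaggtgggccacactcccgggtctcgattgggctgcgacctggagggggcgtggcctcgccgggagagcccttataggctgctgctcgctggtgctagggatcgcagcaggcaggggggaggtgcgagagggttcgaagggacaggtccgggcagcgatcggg
Fkbp5: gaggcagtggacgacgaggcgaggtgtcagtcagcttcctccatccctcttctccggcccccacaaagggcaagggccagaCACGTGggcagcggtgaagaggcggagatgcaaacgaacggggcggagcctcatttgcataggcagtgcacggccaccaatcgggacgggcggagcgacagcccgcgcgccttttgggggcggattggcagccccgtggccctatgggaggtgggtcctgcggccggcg
Txnip: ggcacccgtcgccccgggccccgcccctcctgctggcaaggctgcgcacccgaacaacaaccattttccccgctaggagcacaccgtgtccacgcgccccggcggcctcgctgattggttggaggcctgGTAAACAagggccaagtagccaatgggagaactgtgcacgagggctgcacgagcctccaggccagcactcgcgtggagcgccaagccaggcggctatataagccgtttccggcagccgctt

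Levels are given as FPKM (fragments per kilobase of gene length, scaled to sequencing depth), so they can be compared between genes. In control BM HSC, Txnip was by far the most abundant of the set at 200 ± 31.4 FPKM (SD, n = 3), in the 99.1 percentile of all genes tested by its mean over the libraries. Tsc22d3 (35.7 FPKM), Pik3ip1 (31.3) and Foxo3 (14.0) followed, then Nr3c1 (5.62), Ddit4 (3.85), Per1 (3.79), Fkbp5 (2.19), Foxo1 (1.64) and Klf2 (0.628). Neighbours in this order overlapped between libraries for Tsc22d3 and Pik3ip1, for Nr3c1, Ddit4 and Per1, and for Fkbp5, Foxo1 and Klf2. In PHZ BM HSC the order differed, with Per1 (18.5 FPKM) and Ddit4 (17.8) above Foxo3 (10.4), and Klf2 (2.57) above Foxo1 (1.17) and level with Fkbp5 (2.59). Foxo3 had more RNA per length than Foxo1 in every library. All 10 are protein-coding genes, and the positions given here are those of RefSeq in build GRCm38 (mm10), matched by Entrez gene number.

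**Figure D1:**
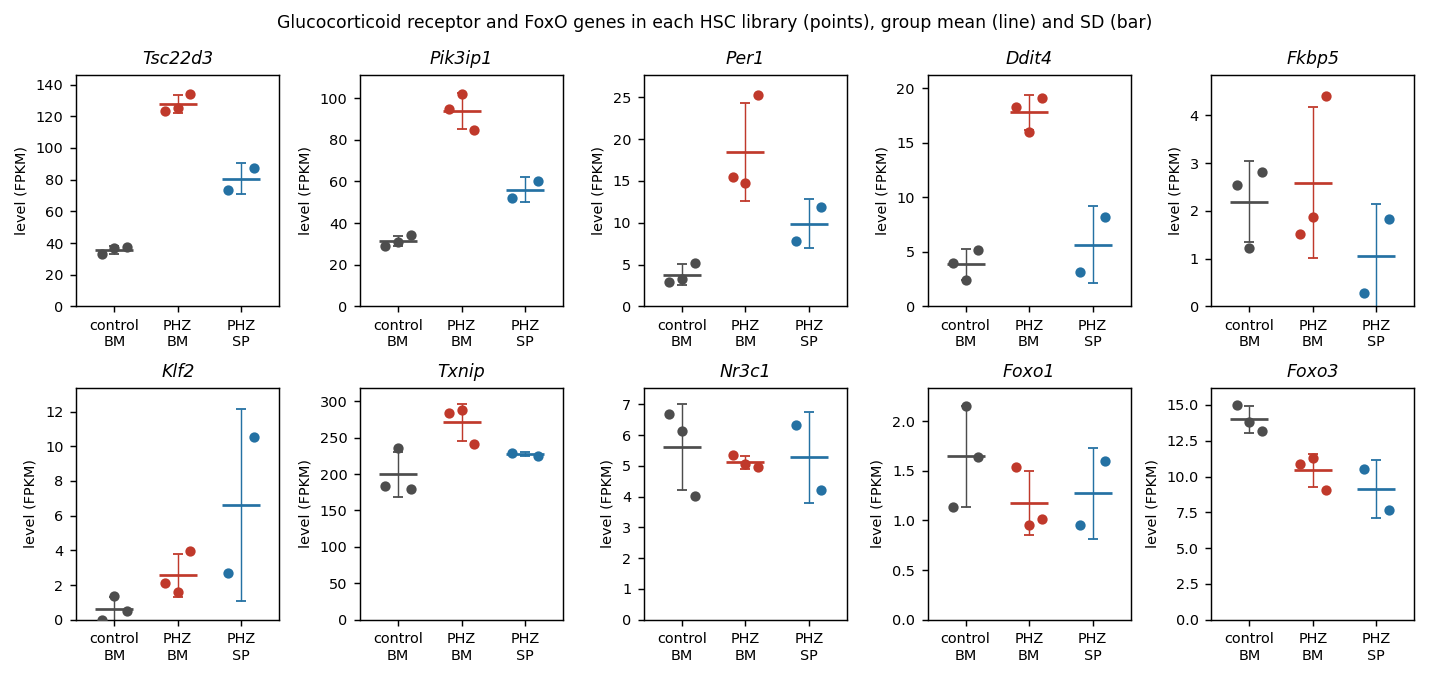
Level of each of the 10 genes (FPKM, vertical axis from 0, own scale per gene) in each library (points) of control BM HSC, PHZ BM HSC and PHZ SP HSC, with the group mean (line) and SD (bar, cut at 0). For Tsc22d3, Pik3ip1, Per1 and Ddit4 the 3 PHZ BM HSC points lie above all other points, while those of Nr3c1, Fkbp5 and Foxo1 mix between groups.

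Tsc22d3 (Entrez gene 14605, chromosome X, 140539528 to 140600522) encodes GILZ, a leucine zipper protein that carries out much of the anti-inflammatory action of glucocorticoid. It had 32.9, 36.6 and 37.5 FPKM in control BM HSC, 124, 125 and 134 FPKM in PHZ BM HSC, and 73.7 and 87.4 FPKM in PHZ SP HSC. The groups did not overlap, with every spleen library between the marrow groups. The mean was 3.58 times the control mean in PHZ BM HSC and 2.26 times in PHZ SP HSC. On the log2(FPKM + 1) scale these differences were 1.81 ± 0.13 (SE) and 1.15 ± 0.15, and PHZ SP HSC differed from PHZ BM HSC by -0.66 ± 0.15. Between 1396 and 7536 reads per library stood behind these values.

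Pik3ip1 (Entrez gene 216505, chromosome 11, 3319241 to 3342971), a membrane protein that restrains PI3K, had the same order of groups. Its levels were 29.0, 30.9 and 34.1 FPKM in control BM HSC, 94.7, 102 and 84.8 FPKM in PHZ BM HSC, and 51.8 and 60.2 FPKM in PHZ SP HSC. Again no library of one group reached another group. PHZ BM HSC had 2.99 times and PHZ SP HSC 1.79 times the control mean, or log2 differences of 1.55 ± 0.14 and 0.82 ± 0.16 (SE), and the spleen differed from the anemic marrow by -0.73 ± 0.16.

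To ask whether the tested members differed as well, the remaining 8 genes were read from a limma fit of all genes. In the marrow comparison, PHZ BM HSC against control, 2 of the 8 passed an adjusted p of 0.05, Per1 and Ddit4, both higher, where 2.74% of all genes tested passed (1.48% higher and 1.26% lower). Without adjustment, 4 of the 8 had a p below 0.05 (Per1, Ddit4, Txnip and Klf2), against 16.6% of all genes. Klf2 reached the level needed for testing, 1 FPKM in at least 2 libraries, only through the PHZ groups. Its place in these counts therefore follows in part from the filter. Groups did not overlap for 5 of the 8, with 4 higher (Per1, Ddit4, Klf2 and Txnip) and 1 lower (Foxo3), against 23.9% of all genes (12.3% higher and 11.7% lower). The median log2 difference of the 8 was 0.29, and that of all genes was 0.01.

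Per1 (Entrez gene 18626, chromosome 11, 69095108 to 69109965) encodes a repressor of the circadian clock that glucocorticoid also induces directly. It had 2.89, 3.30 and 5.19 FPKM in control BM HSC, 15.5, 14.8 and 25.3 FPKM in PHZ BM HSC, and 7.81 and 11.9 FPKM in PHZ SP HSC. All PHZ libraries lay above all control libraries, and both spleen libraries lay below the anemic marrow. Per1 rose 4.88-fold in PHZ BM HSC, a log2 difference of 2.01 ± 0.28 (SE, limma adjusted p = 0.00353). It was higher in 3 of 3 libraries and passed in all 18 alternative fits, where the adjusted p reached at most 0.0177.

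The level of Per1 in the spleen did not pass against either marrow group. PHZ SP HSC differed from control BM HSC by 1.18 ± 0.31 (limma adjusted p = 0.0989) and from PHZ BM HSC by -0.83 ± 0.31 (adjusted p = 0.265). With the replicate number as a block, the first of these had an adjusted p of 0.0460.

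Ddit4 (Entrez gene 74747, chromosome 10, 59949675 to 59951770), also known as REDD1, blocks mTORC1 under stress and is induced by glucocorticoid, by hypoxia and by FoxO factors. It had 3.96, 2.40 and 5.19 FPKM in control BM HSC, 18.3, 16.0 and 19.1 FPKM in PHZ BM HSC, and 3.16 and 8.16 FPKM in PHZ SP HSC. The anemic marrow stood alone, since the spleen libraries overlapped the control. Ddit4 rose 4.62-fold in PHZ BM HSC, by 1.99 ± 0.31 on the log2 scale (SE, limma adjusted p = 0.00662), higher in 3 of 3 libraries and past the threshold in all 18 alternatives, with adjusted p-values up to 0.0345.

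From anemic marrow to spleen, Ddit4 differed by -1.60 ± 0.35, just short of the threshold (limma adjusted p = 0.0598). It passed without control BM HSC replicate 2 (adjusted p = 0.0487) and had an adjusted p of 0.361 without PHZ SP HSC replicate 1. Against control BM HSC the spleen difference was 0.39 ± 0.35 (adjusted p = 0.625), and it became -0.18 without PHZ SP HSC replicate 2.

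Fkbp5 (Entrez gene 14229, chromosome 17, 28398753 to 28486149), the immunophilin that damps the receptor and a widely used glucocorticoid reporter gene, had no such order. It had 2.54, 1.22 and 2.81 FPKM in control BM HSC, 1.51, 1.86 and 4.40 FPKM in PHZ BM HSC, and 0.271 and 1.83 FPKM in PHZ SP HSC. All 3 groups overlapped. Its log2 difference between the marrow groups was 0.13 ± 0.39, with a 95% interval from -0.74 to 0.99 (limma adjusted p = 0.912), and became -0.21 without PHZ BM HSC replicate 3. The interval does not reach the 2.01 of Per1. In the spleen the differences were -0.71 ± 0.44 from control (adjusted p = 0.466) and -0.84 ± 0.44 from the anemic marrow (0.442), and 1 of the 2 spleen libraries held 22 reads. Without that library, PHZ SP HSC replicate 1, they were -0.13 and -0.26, and with voom on reads they were -1.64 and -1.83.

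The receptor gene Nr3c1 (Entrez gene 14815) had similar mean levels in the 3 groups. It had 6.67, 6.15 and 4.03 FPKM in control BM HSC, 5.35, 5.04 and 4.95 FPKM in PHZ BM HSC, and 6.32 and 4.23 FPKM in PHZ SP HSC. The groups overlapped throughout. The log2 difference of PHZ BM HSC from control was -0.09 ± 0.24, with a 95% interval from -0.62 to 0.44 (limma adjusted p = 0.897), and that of PHZ SP HSC was -0.07 ± 0.27, from -0.66 to 0.52 (0.927). The 338 to 543 reads per library left room for changes inside these intervals, and the sign turned in some alternatives.

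Foxo3 (Entrez gene 56484, chromosome 10, 42181845 to 42276695), the FoxO factor with the largest known part in HSC rest, had lower levels in both PHZ groups than in control. It had 15.0, 13.8 and 13.2 FPKM in control BM HSC, 10.9, 11.3 and 9.08 FPKM in PHZ BM HSC, and 10.6 and 7.68 FPKM in PHZ SP HSC. Every library of the anemic mice was below every control library. The differences did not pass, at -0.40 ± 0.19 in PHZ BM HSC (limma adjusted p = 0.337, unadjusted 0.0669) and -0.58 ± 0.22 in PHZ SP HSC (adjusted p = 0.227, unadjusted 0.0217). Foxo1 (Entrez gene 56458, chromosome 3, 52268337 to 52350109) had 1.13, 2.16 and 1.64 FPKM in control BM HSC, 1.54, 0.958 and 1.02 FPKM in PHZ BM HSC, and 0.950 and 1.60 FPKM in PHZ SP HSC. Its groups overlapped, and its difference of -0.28 ± 0.28 between the marrow groups did not pass (adjusted p = 0.666).

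Txnip (Entrez gene 56338, chromosome 3, 96557957 to 96561857) was abundant everywhere. It had 184, 236 and 179 FPKM in control BM HSC, 283, 289 and 242 FPKM in PHZ BM HSC, and 229 and 225 FPKM in PHZ SP HSC. The anemic marrow lay above all other libraries, by a small margin. The difference from control was 0.45 ± 0.13, or 1.36 times the control mean, and did not pass after adjustment (limma adjusted p = 0.108, unadjusted 0.00599), with adjusted p-values from 0.0544 to 0.367 over the 18 alternatives. In the spleen it was 0.20 ± 0.15 from control (adjusted p = 0.560).

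Klf2 (Entrez gene 16598, chromosome 8, 72319062 to 72321654), a zinc finger factor that FoxO raises and that keeps lymphocytes at rest, had its highest mean in the spleen. It had 0, 1.38 and 0.505 FPKM in control BM HSC, 2.12, 1.61 and 3.98 FPKM in PHZ BM HSC, and 2.71 and 10.5 FPKM in PHZ SP HSC. All PHZ libraries stood above all control libraries, from 0 to 23 reads per library in control and 28 to 202 in the PHZ groups. The differences from control were 1.17 ± 0.45 in PHZ BM HSC (limma adjusted p = 0.211) and 2.10 ± 0.50 in PHZ SP HSC (adjusted p = 0.0827, unadjusted 0.00153). Neither passed, and at these few reads their size depended on the processing. With voom on reads they were 3.20 and 4.24, while the group means stood at 4.10 and 10.5 times the control mean. Without control BM HSC replicate 1, which had 0 reads, the marrow difference was 0.86. Without PHZ SP HSC replicate 2, which had the 10.5 FPKM, the difference from control was 1.28. The other spleen library lay inside the range of PHZ BM HSC, and the spleen differed from the anemic marrow by 0.93 ± 0.50 (limma adjusted p = 0.459), or by 0.11 without that replicate.

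**Figure D2:**
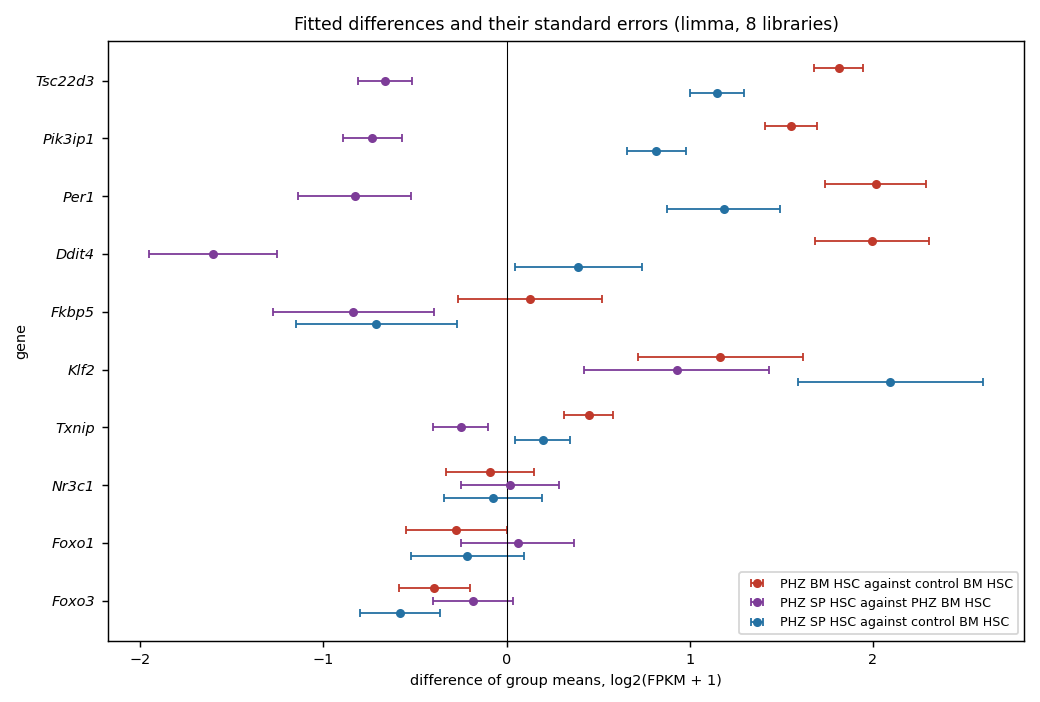
Difference of group means for each gene on the log2(FPKM + 1) scale (horizontal axis) in the 3 comparisons (colours), with bars for 1 standard error from limma over 8 libraries. Per1 and Ddit4 are near 2 between the marrow groups, beside Tsc22d3 and Pik3ip1, which were chosen for this difference, and Klf2 lies at 2.10 in the spleen and 1.17 in anemic marrow against control, with 1.28 in the spleen without PHZ SP HSC replicate 2.

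When spleen and marrow of anemic mice were compared, 0 of the 8 tested members passed in limma, where 0.978% of all genes did (0.608% higher and 0.37% lower in the spleen), and 2 had an unadjusted p below 0.05 (Ddit4 and Per1), against 13.5% of all genes. The groups did not overlap for 3 of the 8, all lower in the spleen (Per1, Ddit4 and Txnip), against 17.4% of all genes in each direction and 34.8% in both together. When the spleen was compared with control marrow, 0 of the 8 passed, where 0.758% of all genes did (0.626% higher and 0.132% lower), and 3 had an unadjusted p below 0.05 (Per1, Klf2 and Foxo3), against 15.8% of all genes. Here 2 were higher without overlap (Per1 and Klf2) and 1 lower (Foxo3), against 15.2% and 13.7% of all genes, or 28.9% in either direction. Klf2 was tested only because of its level in the PHZ groups. Voom, the other tool run, also called 0 of the 8 in both comparisons. Each pair of comparisons shares a group of libraries, so the values of a gene in them are not independent.

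Immediate early genes and genes of cell division moved with the same groups. The summed level of 19 immediate early genes was 168 to 221 FPKM in control BM HSC, 1146 to 1322 in PHZ BM HSC and 412 to 423 in PHZ SP HSC. Of the 17 tested, all 17 were fitted higher in PHZ BM HSC than in control. Of these, 15 passed the limma threshold, where 1.48% of all genes passed as higher. In the spleen 15 were fitted lower than in the anemic marrow, and 9 of them passed, where 0.37% of all genes passed as lower. Egr2 and Atf3 were at 0 in every control library. The summed level of 18 proliferation genes was 323 to 492 FPKM in control, 89.8 to 183 in PHZ BM HSC and 342 to 358 in PHZ SP HSC. All 18 were fitted lower in PHZ BM HSC than in control, and 14 passed, where 1.26% of all genes passed as lower. Tsc22d3, Pik3ip1, Per1 and Ddit4 had group means in the same order as the immediate early sum, and its part in their levels was not tested. Among the megakaryocyte markers, 4 of 5 tested were fitted lower in PHZ BM HSC than in control, and 2 passed, against the same 1.26% of all genes. These were the platelet chemokine genes Pf4 (69.1 and 32.6 FPKM in control and PHZ BM HSC, limma adjusted p = 0.0425) and Ppbp (6.38 and 1.80 FPKM, adjusted p = 0.0265). The part of these markers in the marrow differences was not tested.

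Some markers of mature cells were higher in the spleen, where Klf2 had its highest mean. Against control, 6 of 9 erythroid, 1 of 8 neutrophil, 1 of 2 T and NK cell, 0 of 3 B cell and 0 of 5 macrophage and monocyte markers tested passed in limma. All 8 of them were higher, where 0.626% of all genes passed as higher. The T and NK cell marker was Klrb1c, a receptor gene of NK cells, with 0.947, 2.58 and 16.6 FPKM in control BM HSC, PHZ BM HSC and PHZ SP HSC (limma adjusted p = 0.000866 against control and 0.00477 against the anemic marrow). The other T and NK cell marker tested, Nkg7, went the other way, with 36.7, 36.2 and 27.4 FPKM in the same order. All 3 B cell markers tested lay above PHZ BM HSC without overlap, where 17.4% of all genes did, and 2 lay above control, where 15.2% did. Of the 5 macrophage and monocyte markers tested, 4 were fitted higher than control and 1 lower, with a median log2 difference of 0.19. Among them Cd68 had 4.35, 10.5 and 46.0 FPKM (limma adjusted p = 0.0582 against control). C1qb ran the other way, with 1.92, 1.90 and 0.041 FPKM. The part of these markers in the level of Klf2 was not tested.

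The pathway was then widened to other targets of the receptor. Of 30 such genes, 25 were tested, and 3 passed as higher in the marrow comparison and 0 as lower, where 1.48% and 1.26% of all genes did. At an unadjusted p below 0.05 there were 10 of the 25, against 16.6% of all genes, with 22 of 25 fitted above 0 and a median log2 difference of 0.53 beside 0.01 for all genes. Zfp36, which encodes the RNA-destabilising protein tristetraprolin, went from 10.1 ± 0.938 FPKM (SD, n = 3) to 110 ± 15.5 (n = 3), a log2 difference of 3.32 ± 0.18 (SE, limma adjusted p = 4.25e-06). Dusp1, a phosphatase that shuts off stress kinases, went from 22.3 ± 7.21 to 106 ± 16.5 FPKM (2.24 ± 0.23, adjusted p = 0.000691). Zfp36l2, a relative of Zfp36, went from 55.8 ± 7.38 to 95.3 ± 9.03 FPKM (0.76 ± 0.15, adjusted p = 0.0178). Zfp36 and Dusp1 passed in all 18 alternatives. Zfp36l2 passed in 13 and was lost when replicate 1 or 2 of either marrow group was left out (adjusted p up to 0.114), and with replicates 1 and 2 of PHZ BM HSC averaged. Zfp36 and Dusp1 are also on the immediate early list, and Zfp36l2 is not.

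In the spleen, 19 of the 25 genes were fitted below their level in anemic marrow, and 2 passed the threshold, where 0.978% of all genes did (7 of 25 at an unadjusted p below 0.05, against 13.5%). These were Zfp36 at 33.8 ± 7.37 FPKM (n = 2, log2 difference -1.69 ± 0.20, limma adjusted p = 0.00416) and Zfp36l2 at 50.2 ± 0.715 FPKM (-0.91 ± 0.16, adjusted p = 0.0268). Zfp36 was higher than in control BM HSC (1.64 ± 0.20, adjusted p = 0.00376), the 1 gene of the list that passed there, where 0.758% of all genes did. At an unadjusted p below 0.05 there were 8 of 25, against 15.8%, and the list median was 0.26. The calls of Zfp36 held in 17 of 18 alternatives each and were lost without PHZ SP HSC replicate 2 and replicate 1 in that order. That of Zfp36l2 held in 11. It was lost with the replicate number as a block, with no filter on low values, without replicate 1 or 2 of either PHZ group, and with replicates 1 and 2 of PHZ BM HSC averaged. Voom also called Dusp1 in both spleen comparisons (adjusted p = 0.0498 and 0.0349). Classic receptor targets that did not pass between the marrow groups, named after their values were seen, included the kinase gene Sgk1 (1.23 and 2.33 FPKM in control and PHZ BM HSC, adjusted p = 0.354), the metallothionein gene Mt1 (12.8 and 47.9 FPKM, 0.110, with 20.8, 25.8 and 97.2 FPKM in the 3 PHZ BM HSC libraries) and the zinc finger gene Klf9 (4.25 and 9.01 FPKM, 0.103). A list of receptor partners held mostly chaperones and cofactors, with the related receptor gene Nr3c2 and the pump genes Abcb1a and Abcb1b. Of its 20 tested genes, 0 passed the threshold of limma or voom in each comparison. There were 2, 5 and 5 genes at an unadjusted p below 0.05, with medians of -0.01, -0.07 and -0.09, in the marrow comparison, the spleen against anemic marrow and the spleen against control. In this order 16.6%, 13.5% and 15.8% of all genes had an unadjusted p below 0.05.

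**Figure D3:**
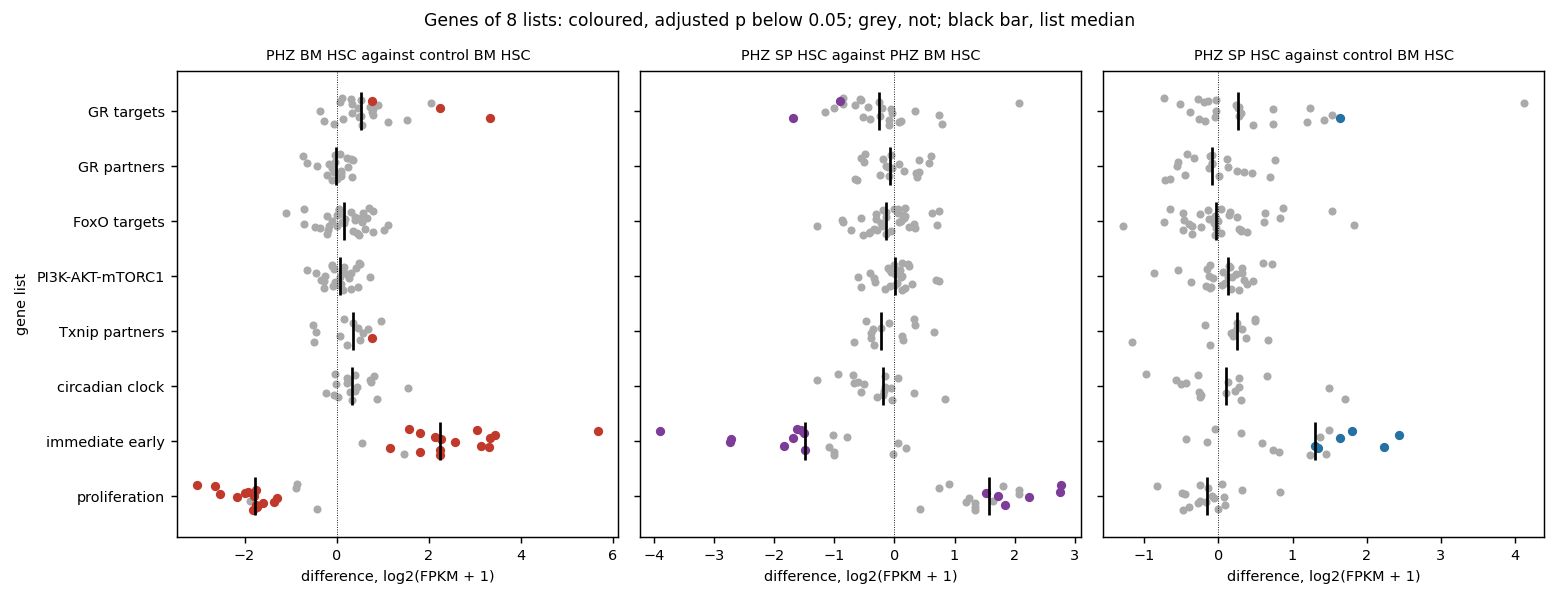
Difference on the log2(FPKM + 1) scale (horizontal axis) of every tested gene of 8 lists in the 3 comparisons, coloured where the limma adjusted p was below 0.05, with a bar at the list median. Receptor targets have a median of 0.53 between the marrow groups with 3 genes coloured, FoxO targets a median of 0.17 with none, and the immediate early list has 15 of 17 coloured.

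FoxO targets were counted in the same way. Of 37 genes on that list, 34 were tested and 0 passed in limma in any of the 3 comparisons, where 2.74%, 0.978% and 0.758% of all genes passed, so a count of 0 is near the background. At an unadjusted p below 0.05 there were 10, 3 and 5, against 16.6%, 13.5% and 15.8% of all genes, and the medians were 0.17, -0.14 and -0.03. The list was not split by whether FoxO raises or lowers a gene, so its medians may mix both directions. Whether the FoxO and receptor targets differ was not tested. Voom called 1, the cyclin gene Ccnd2, lower in PHZ BM HSC than in control (adjusted p = 0.0487). The FoxO genes nearest to the limma threshold between the marrow groups were the cyclin gene Ccnd1 (6.21 and 2.39 FPKM in control and PHZ BM HSC, limma adjusted p = 0.0618), the death gene Bbc3 (0.864 and 2.83 FPKM, 0.0769) and the autophagy gene Gabarapl1 (118 and 172 FPKM, 0.0822), named after their values were seen. The PI3K, AKT and mTORC1 genes that act on FoxO also had 0 of 27 tested past the threshold of limma or voom in each comparison. At an unadjusted p below 0.05 there were 2, 3 and 3, against the same shares of all genes, with medians of 0.07, 0.01 and 0.13. Ddit4, which inhibits this pathway, stood at 4.62 times its control mean in PHZ BM HSC. Pik3ip1, another inhibitor, stood at 2.99 times, but it was chosen for its rise there.

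Around Txnip, 1 of 13 tested genes passed between the marrow groups, where 2.74% of all genes did. This was Arrdc1, an arrestin relative of Txnip, which rose from 34.7 ± 1.63 to 60.0 ± 7.96 FPKM (SD, n = 3 each), by 0.77 ± 0.15 on the log2 scale (SE, limma adjusted p = 0.0191), and had 45.3 ± 2.93 FPKM in PHZ SP HSC. The call held in 13 of 18 alternatives and was lost when replicate 1 or 2 of either marrow group was left out (adjusted p up to 0.118), and with replicates 1 and 2 of PHZ BM HSC averaged. The list median was 0.35 between the marrow groups, and 0 genes of it passed in limma or voom in the other 2 comparisons, where 3 and 2 had an unadjusted p below 0.05, against 13.5% and 15.8% of all genes.

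Around Per1, the clock genes had 0 of 17 tested past the threshold of limma or voom in each comparison, with 3, 5 and 3 at an unadjusted p below 0.05, against 16.6%, 13.5% and 15.8% of all genes. Between the marrow groups 13 of the 17 were fitted above 0, with a median of 0.34. The other period genes did not pass, with log2 differences of 0.34 for Per2 (limma adjusted p = 0.566) and 0.24 for Per3 (adjusted p = 0.691) between the marrow groups, named after their values were seen. The hour of sorting is not given in the sources used here.

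Paralogs were compared with the members to see which relative moved. Of 22 tested, 2 passed as higher in PHZ BM HSC over control and 3 in PHZ SP HSC over control, and 0 passed as lower, where 1.48% and 0.626% of all genes passed as higher. Tsc22d1, a member of the same leucine zipper family as Tsc22d3, rose in both tissues, with 29.8 ± 2.11 FPKM (SD, n = 3) in control BM HSC, 65.1 ± 13.4 (n = 3) in PHZ BM HSC and 64.2 ± 1.63 (n = 2) in PHZ SP HSC. Its log2 differences from control were 1.09 ± 0.16 (limma adjusted p = 0.00573) and 1.08 ± 0.18 (adjusted p = 0.0261). The first call held in all 18 alternatives and the second in 11. The second was lost with no filter on low values and without any one of control BM HSC replicates 1, 2 and 3, PHZ BM HSC replicate 2 and PHZ SP HSC replicates 1 and 2 (adjusted p up to 0.181). The spleen and anemic marrow differed by -0.0005 on the log2 scale, with a 95% interval from -0.40 to 0.40. Tsc22d3, chosen for its level in PHZ BM HSC, differed by -0.66. Tsc22d4 had 8.33, 12.8 and 10.5 FPKM in the 3 groups in that order and Tsc22d2 had 1.20, 1.20 and 0.717, and neither passed in any comparison. Foxo4, the other FoxO gene tested, had 1.24, 1.38 and 1.62 FPKM and did not pass (adjusted p = 0.870, 0.917 and 0.756).

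Among the relatives of Klf2, Klf6 had 7.90 ± 1.58 FPKM in control BM HSC and 18.7 ± 1.28 in PHZ BM HSC (log2 difference 1.16 ± 0.20, SE, limma adjusted p = 0.0116). In PHZ SP HSC it had 21.6 ± 4.59 FPKM (1.35 ± 0.23 from control marrow, limma adjusted p = 0.0261). Klf6 is on the immediate early list. Its marrow call held in 16 of 18 alternatives, lost without PHZ BM HSC replicate 2 (limma adjusted p = 0.0710) and with replicates 1 and 2 of PHZ BM HSC averaged. Its spleen call held in 8. Among those that lost it were the replicate number as a block, no filter on low values, only the 2 groups compared, and leaving out PHZ SP HSC replicate 2. Klf1, the erythroid master factor of the family, had 1.72 ± 1.18 FPKM in control BM HSC, 2.55 ± 0.823 in PHZ BM HSC and 9.33 ± 1.11 in PHZ SP HSC. The spleen differed from control marrow by 2.01 ± 0.36 (limma adjusted p = 0.0361). This call held in 8 of 18 alternatives, with the highest adjusted p, 0.229, without PHZ SP HSC replicate 1.

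Likeness between genes was read from the 8 libraries as a Pearson correlation of log2(FPKM + 1), a description in which the points share their groups, and no p was taken. Tsc22d3 and Pik3ip1 were both chosen for a higher level in PHZ BM HSC, so their likeness to each other follows in part from that choice. Among all genes tested, the 5 most like Tsc22d3 were Pik3ip1 (r = 0.985), the lipase gene Pnpla2 (0.984), the histone gene H1f3 (0.977), the adaptor gene Lat2 (0.976) and the GTPase gene Rhob (0.975). The 5 most like Pik3ip1 were H1f3 (0.994), Cnpy3 (0.986), Tsc22d3 (0.985), Zfp36 (0.980) and the proton pump gene Atp6v0b (0.980). Pnpla2, for example, had 22.4 to 25.7 FPKM in control BM HSC, 42.7 to 50.2 in PHZ BM HSC and 36.1 to 37.7 in PHZ SP HSC, with the spleen again between the marrow groups.

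Within the set, Per1 was most like Tsc22d3 (r = 0.968), and Ddit4 (0.896) and Txnip (0.837) were most like Pik3ip1. Klf2 was most like Per1 (0.651), and Fkbp5 was most like Ddit4 (0.487). Nr3c1 and Foxo3 were most like each other (0.499), and Foxo1 was most like Foxo3 (0.198). Foxo3 and Klf2 ran opposite to each other, with r = -0.960 over the 8 libraries.

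**Figure D4:**
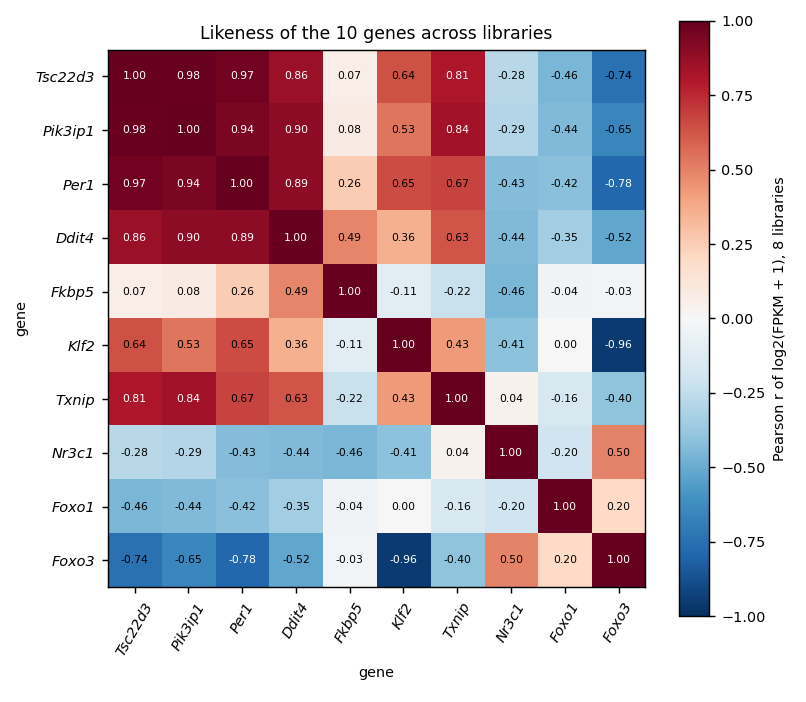
Pearson r of log2(FPKM + 1) over the 8 libraries for each pair of the 10 genes (rows and columns), from -1 (blue) to 1 (red). Tsc22d3, Pik3ip1, Per1 and Ddit4 form a block with r from 0.86 to 0.98, Fkbp5 lies outside it, and the lowest value is -0.96 for Klf2 and Foxo3. Within the block, Tsc22d3 and Pik3ip1 were chosen for their rise in PHZ BM HSC.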

How the data were processed

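RNA of sorted HSCs was amplified with SMART-Seq2 and made into Nextera XT libraries. Per the submitters' processing notes, reads were mapped to mm10 with STAR and compared with DESeq2. The gene counter, annotation release and strand handling are not given in the sources used here, so reads of overlapping or antisense genes cannot be told apart. The authors deposited FPKM values in 1 table per group. The tables that hold the authors' own DESeq2 comparisons (fold changes and p-values) were not used. No column of a sample outside the series was present (0 columns).

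The relative library factors of the PHZ tables matched those computed over PHZ BM HSC and PHZ SP HSC together, with a gap of 0%. Those of the control table matched factors computed over control BM HSC and PHZ SP HSC, also with a gap of 0%. All 110442 values above 0 were whole multiples of 1 read (100%, tolerance 0.0001). Reads of a few low genes were fixed only up to a common factor. To put the 8 libraries on one scale, median-of-ratios factors were computed over them jointly, and the largest resulting move was 1.05%. Rn45s takes part of each library's depth, which limits the precision of low genes, and reads without molecular identifiers are not independent molecules.

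Genes with at least 1 FPKM in at least 2 libraries were tested with limma 3.58.1 in R 4.3.3 on log2(FPKM + 1), with trend and robust options, all 3 groups in one fit. Tests were two-sided, p-values were adjusted by Benjamini-Hochberg over every gene tested, and the threshold was 0.05. The pseudocount of 1 understates changes of low genes. Tables, motifs and figures were made with Python 3.11.15, and the scripts were tested on simulated data. Alternatives were other pseudocounts, filters and scalings, the FPKM as deposited, voom on the recovered reads, 2 groups at a time, the replicate number as a block and leaving out each library. Averaging PHZ BM HSC replicates 1 and 2 was added after seeing the data. The 10 members and the gene lists were chosen with earlier results of these data known. Named were the 10 members, the genes of each list past the threshold, the Tsc22 and FoxO paralogs and the genes most like the members. Foxo6, Trim63 and Hbb-bs were not analysed here.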

Additional observations from a re-analysis of the deposited data

How the results depend on the processing

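Over 18 alternatives, Per1 and Ddit4 passed the limma threshold in the marrow comparison (PHZ BM HSC against control) in each, so 2 of the 8 tested members were called with any library left out (2 to 2). Leaving out a library gave 0 to 1 member called for the spleen against anemic marrow, with Ddit4 called without control BM HSC replicate 2, and 0 to 0 for the spleen against control. Same-numbered libraries of different groups did not deviate together (r from -0.0079 to 0.0603 between the marrow groups, and 0.029 and 0.0077 between PHZ BM and PHZ SP HSC). The sources used here do not say whether marrow and spleen came from the same mice, and the 2 spleen libraries deviate from their mean as mirror images, so this check is weak for them and the numbers were not taken to pair samples. With the replicate number as a block, 294, 112 and 73 genes were called in these 3 comparisons in that order, and 1 member, Per1, was called in the last. The counts of all genes called, 311, 111 and 86, ran with a library left out from 115 to 306, from 6 to 146 and from 14 to 83. The lowest came without PHZ BM HSC replicate 2 and without a PHZ SP HSC library, where the lone spleen library is assumed to vary like the other groups. They were 205, 62 and 46 with no filter on low values, and 116, 25 and 36 with PHZ BM HSC replicates 1 and 2 averaged, an alternative chosen after seeing the data. Voom gave 65 for the spleen against anemic marrow, and a pseudocount of 0.1 FPKM and a fit of only the 2 groups gave 39 and 44 for the spleen against control. With equal sums without Rn45s the 168 higher and 143 lower marrow genes became 147 and 190, and with 2 groups fitted the 71 higher and 15 lower spleen genes became 42 and 2.

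Signs turned for differences that had not passed, and the causes were not tested. With a library left out, the marrow difference of Nr3c1 ran from -0.28 to 0.028 and that of Fkbp5 from -0.21 to 0.34. For the spleen against anemic marrow, Nr3c1 ran from -0.23 to 0.26, Foxo1 from -0.15 to 0.27 and Foxo3 from -0.39 to 0.021. There Nr3c1 was -0.022 with upper-quartile scaling and -0.085 with the replicate block. For the spleen against control, Nr3c1 ran from -0.32 to 0.17 and Ddit4 from -0.18 to 0.96.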
